A study of Mus musculus with 43 samples.

Results

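Collagen genes were followed in whole lung of mice given saline, house dust mite extract (HDM), or HDM with antibodies against IL-33 and IL-4Rα. They were every gene of the deposited count table whose symbol has the form Col, number, a, number, and that reached 1 CPM (a count scaled to the size of its library) or more in at least 5 libraries. This chose 36 of 44 collagen genes, in a table of 24475 genes. By textbook class, 9 were fibrillar collagens, 8 were basement membrane collagens and 19 were other collagens (network-forming, fibril-associated, transmembrane and the type VI chains). The 8 collagen genes below the threshold were Col2a1, Col9a1, Col9a2, Col9a3, Col10a1, Col11a1, Col19a1 and Col25a1, which include the main collagens of cartilage. The least detected member, Col26a1, reached 1 CPM in 6 libraries, and the closest gene outside, Col9a2, did so in 4. All 36 members passed the filter on low counts.

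The study exposed female mice of a hybrid 129S6/C57BL/6 background, aged 8 to 12 weeks, to HDM through the nose 3 times a week. For the work with antibodies the mice carried human sequence in place of mouse IL-4, IL-33 and the IL-4Rα ectodomain, since dupilumab (anti-IL-4Rα) and itepekimab (anti-IL-33) bind the human proteins. The labels do not say which of the groups below had this genotype or how long saline was given. The design text speaks of 4, 15 or 19 weeks of HDM and of antibody from day -3, week 4 or week 11, whereas the sample labels give 11 and 19 weeks and no antibody start; the sample labels are used here. The 43 libraries fall into 7 groups: saline (n = 5), HDM for 11 weeks (n = 6), HDM for 19 weeks (n = 7), and 4 groups that had HDM for 19 weeks and antibody. Those 4 had isotype antibody alone as the control (n = 7), isotype plus itepekimab (n = 6), isotype plus dupilumab (n = 7), or itepekimab plus dupilumab, called the combination (n = 5). The labels number the libraries of a group without saying that each came from its own mouse, so the p-values below measure the spread between libraries.

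Collagens are triple helices of 3 chains that are made in the endoplasmic reticulum, secreted as procollagen, trimmed by proteases and joined by cross-links. Fibrillar collagens such as types I, III and V carry the tensile strength of the airway wall and the interstitium, and their build-up is the mark of fibrosis. Type IV collagen forms the sheet of the basement membrane: the Col4a1 and Col4a2 chains build the network found under most epithelia and vessels, and the Col4a3, Col4a4 and Col4a5 chains build the network of thin filtering surfaces such as the glomerulus and the alveolus. Type VI collagen forms beaded filaments around cells, and Col6a4, Col6a5 and Col6a6 are alternatives to its Col6a3 chain.

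Library totals ran from 11932579 to 26749395 counts, and no pair of libraries was alike enough to be a repeated deposit (highest correlation of log2 CPM 0.986). Libraries differed in how their counts depended on the GC content of transcripts. The GC slope is how much a library's log2 values, taken against the average library, rise per 10 percentage points of transcript GC. Its group means were -0.592 (saline), -0.357 (HDM, 11 weeks) and 0.156 (HDM, 19 weeks), and among the antibody groups -0.127 (isotype), 0.32 (combination), 0.251 (dupilumab) and 0.258 (itepekimab). A slope above 0.75 was found in 3 combination libraries, 3 given dupilumab, 2 given itepekimab and 1 of the 19-week group. A fit that adds this slope to the group means as a further term is called the GC-adjusted fit. The slope is taken from the same counts and differs between groups: -0.804 to -0.331 in saline and -0.389 to 0.818 at 19 weeks of HDM. In that fit, effects of treatment and of GC slope cannot be fully told apart. In 6 libraries summed markers of squamous epithelium or skeletal muscle were above 50 CPM: saline replicate 3 (12900 and 1960 CPM), 19-week replicate 1 (3850 and 1560 CPM), isotype replicate 8, anti-IL-4Rα replicate 4 and combination replicates 1 and 8. Collagens sit high on the GC axis, with a median of 55.4% against 49.8% for all genes tested, so the GC slope and these libraries are set beside the results they touch.

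Per kilobase of transcript, the order of levels in saline was led by Col4a1 (81 CPM per kb), Col3a1 (78.6), Col4a2 (69.5), Col6a1 (66.3), Col1a2 (58.7), Col6a2 (34.8), Col1a1 (31.8) and Col4a3 (30.8). At 19 weeks of HDM it was led by Col3a1 (264 CPM per kb), Col4a1 (234), Col4a2 (225), Col6a1 (194), Col1a2 (191) and Col1a1 (185). The standard deviations of these 6 genes at 19 weeks are larger than the steps between neighbours in that order.

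The summed fibrillar collagens had the widest gap to saline. In saline they took 1050, 1030, 1080, 1180 and 1140 CPM. At 11 weeks of HDM the sum had a lowest value of 1650, a median of 2630 and a highest value of 3270 CPM, and at 19 weeks 2140, 4390 and 6240 CPM. No HDM library of either time overlapped with saline. Basement membrane collagens summed to 1210 to 1830 CPM in saline and to 1750 to 6350 CPM at 19 weeks, so that the groups overlapped. The other collagens rose from 827 to 1020 CPM in saline to 1090 to 3370 CPM at 19 weeks without overlap. All 36 genes together made up a mean of 0.361% of counts in saline, 0.619% at 11 weeks and 0.976% at 19 weeks. In whole lung, more cells of a type and more RNA per cell cannot be told apart.

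**Figure D1:**
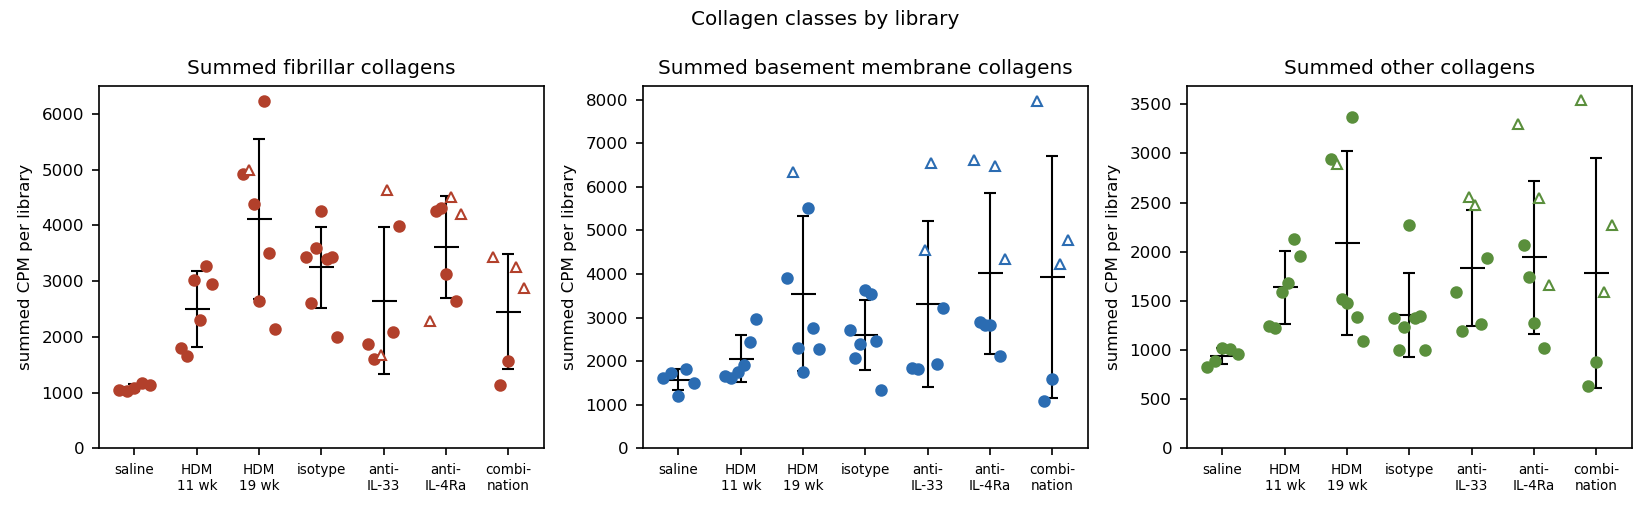
Summed CPM of the fibrillar (9 genes), basement membrane (8 genes) and other collagens (19 genes) in each of the 43 libraries, by group; bars show the mean and SD, and open triangles mark the 9 libraries with a GC slope above 0.75. The fibrillar sum lies between 1030 and 1180 CPM in saline and between 2140 and 6240 CPM after 19 weeks of HDM, while 1 combination library, at 1140 CPM, lies in the range of saline.

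Mite exposure raised fibrillar collagens and divided the basement membrane collagens. After 11 weeks, 9 of 36 members (25%) were called higher than in saline and 7 (19.4%) lower, with edgeR's quasi-likelihood test and an adjusted p under 0.05, against 8.65% higher and 6.74% lower among all 15979 genes tested. After 19 weeks 17 members (47.2%) were higher and 4 (11.1%) lower, against 19.2% and 15.6% of all genes. The fibrillar class had 4 of 9 higher at 11 weeks and 7 of 9 at 19 weeks, with none lower and median log2 fold changes of 1.14 and 1.73. The basement membrane class had 1 of 8 higher and 4 lower at 11 weeks, then 4 higher and 3 lower at 19 weeks. The other collagens had 4 of 19 higher and 3 lower, then 6 higher and 1 lower. The median over all genes was 0 at 11 weeks and 0.01 at 19 weeks. At 11 weeks 11 members had every HDM library above every saline library and 3 had every one below, against 11.1% and 10.6% of all genes. At 19 weeks these were 15 and 3, against 13.9% and 14.7%. The 9 higher at 11 weeks became 19 when these 2 groups were fitted alone, with 3003 of 15262 genes higher. The 4 lower at 19 weeks became 7 in the GC-adjusted fit, with 2680 of 15979 genes lower. Both comparisons use the same saline libraries.

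**Figure D2:**
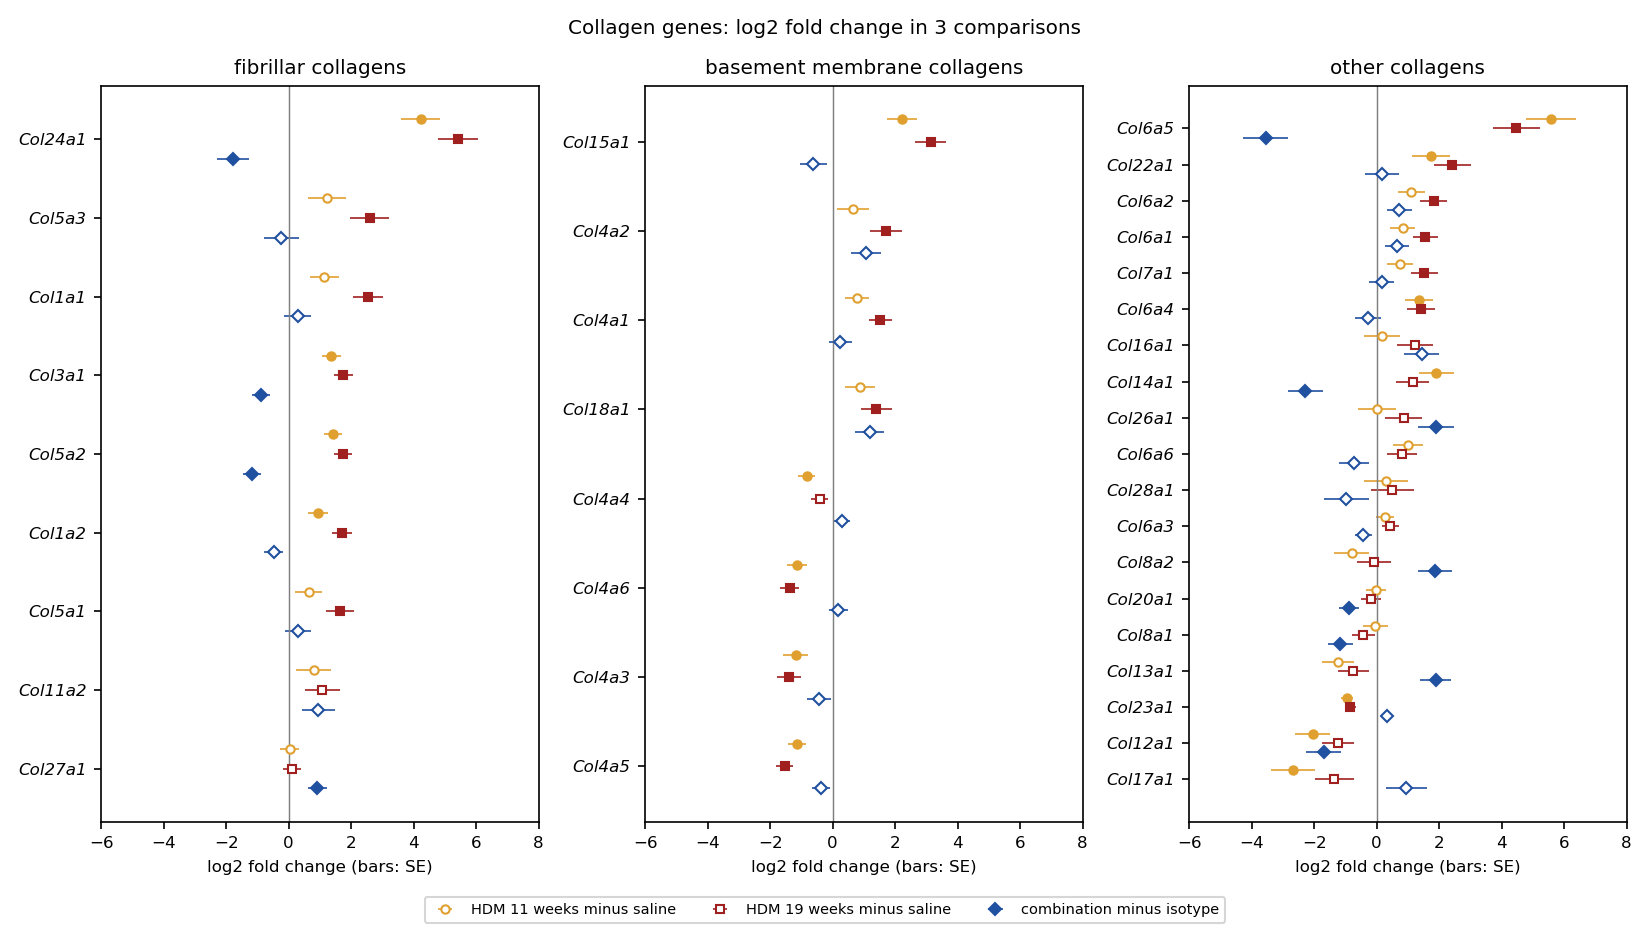
Log2 fold change with its standard error for the 36 collagen genes in 3 comparisons, by class and ordered by the change at 19 weeks; filled symbols passed an adjusted p of 0.05. Fibrillar genes lie to the right after HDM, the chains Col4a3 to Col4a6 lie to the left, and Col6a5 (log2 change 5.58 at 11 weeks) and Col24a1 (5.41 at 19 weeks) lie farthest out.

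Col24a1, a minor fibrillar collagen best known from developing bone and cornea, had the largest rise among the fibrillar genes. Its levels in saline were 1.15, 0.11, 0.345, 0.117 and 0.264 CPM. At 11 weeks the lowest, median and highest values were 3.3, 7.99 and 11.8 CPM, and at 19 weeks 6.89, 15.8 and 27.1 CPM. Every HDM library was above every saline library. The log2 fold change was 4.23 ± 0.62 (SE; edgeR adjusted p = 3.14e-06) at 11 weeks and 5.41 ± 0.64 (edgeR adjusted p = 3.75e-08) at 19 weeks. The gene lies on chromosome 3 at 145292472 to 145552013 (GRCm38, the assembly named mm10).

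Type III collagen, the fibre of distensible tissue that is laid down early in repair, was called at both times. Col3a1 was at 511, 396, 370, 457 and 453 CPM in saline, at 816, 1170 and 1410 CPM (lowest, median, highest) at 11 weeks and at 872, 1440 and 1840 CPM at 19 weeks. The HDM libraries did not overlap with saline, and the log2 changes were 1.37 ± 0.31 (edgeR adjusted p = 0.00126) and 1.75 ± 0.3 (edgeR adjusted p = 2.76e-05). Col5a2, a type V chain that sits inside type I fibrils and sets their diameter, moved alike: 86.4, 78.3, 49.5, 94.5 and 79.3 CPM in saline, a median of 210 at 11 weeks and of 258 CPM at 19 weeks, with log2 changes of 1.43 and 1.73. Col3a1 and Col5a2 are neighbours on chromosome 1, on opposite strands and 24624 bases apart.

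Type I collagen is the main fibre of scar. Col1a1 had 127, 178, 242, 202 and 193 CPM in saline, and a lowest, median and highest value of 202, 381 and 644 CPM at 11 weeks. 1 library at 11 weeks lay within the saline range, and the change of 1.14 ± 0.46 did not pass (edgeR adjusted p = 0.0913). It passed in 4 of the 9 alternatives, among them the GC-adjusted fit (0.79, edgeR adjusted p = 0.0148) and the fit without the libraries of high GC slope (1.13, edgeR adjusted p = 0.0272). At 19 weeks Col1a1 ran from 451 to 2200 CPM with a median of 873, all above saline, with a log2 change of 2.55 ± 0.48 (edgeR adjusted p = 8.9e-05). Its partner Col1a2 went from 272 to 342 CPM in saline to a median of 628 CPM at 11 weeks (log2 change 0.95, edgeR adjusted p = 0.0362) and 1160 CPM at 19 weeks (1.70, edgeR adjusted p = 9.24e-05). The call for Col1a2 at 11 weeks was lost when any of 8 of the 11 libraries was left out, with adjusted p-values up to 0.0925. Between 11 and 19 weeks the rise of Col1a1, 1.4 ± 0.43 on the log2 scale, had an unadjusted p of 0.00207 and an edgeR adjusted p of 0.192.

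By the threshold, the type V chains Col5a1 and Col5a3 passed at 19 weeks and not at 11 weeks. Their log2 changes were 1.65 and 2.59 at 19 weeks (edgeR adjusted p = 0.00345 and 0.00141) and 0.64 and 1.23 at 11 weeks. Col11a2 and Col27a1, fibrillar genes of cartilage, had 1.08 and 0.11 at 19 weeks and did not pass. In the GC-adjusted fit the changes at 19 weeks were smaller for the GC-rich chains: Col1a1 1.42 (edgeR adjusted p = 5.82e-05), Col1a2 1.24, Col5a3 1.22 and Col5a1 0.60 (edgeR adjusted p = 0.0581). Col3a1, Col5a2 and Col24a1 had 1.66, 1.80 and 5.17 in that fit.

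Many collagen messages carry, in their 3′ untranslated region, the 7 bases that pair with the seed of miR-29, a microRNA family known to repress collagens in fibroblasts. The mature sequences are shown because the family has 1 seed (bases 2 to 8, in capitals) in all members. The sequences are from RefSeq (GRCm38.p6).
mmu-miR-29a-3p: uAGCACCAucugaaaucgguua
mmu-miR-29b-3p: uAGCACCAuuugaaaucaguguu
mmu-miR-29c-3p: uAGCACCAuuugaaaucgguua
The match to the seed, TGGTGCT, was present in 21 of 36 members (58.3%), taking the longest 3′ untranslated region annotated for each gene in GENCODE M21. It was present in 15% of the 14825 genes tested that have such a region, and in 24.5% of the 7197 whose region is at least as long as the median collagen region of 1175 bases. By class the match was found in 7 of 9 fibrillar, 7 of 8 basement membrane and 7 of 19 other collagens. The match in 4 members that changed with HDM, in capitals, reads as follows.
Col1a1: gaaggaatttcTGGTGCTatagaagctga
Col3a1: aaatgtctcaaTGGTGCTataataaataa
Col24a1: ttggtgttgctTGGTGCTgtctcccaaaa
Col4a5: gctcccaccaaTGGTGCTaatatcctcta
The first 3 of these genes were higher at 19 weeks and Col4a5, which holds 3 matches, was lower. Members with a match had a median log2 change of 0.66 at 11 weeks and 1.53 at 19 weeks, and members without 0.80 and 0.81. For the combination against isotype antibody these medians were 0.18 and -0.28. Col6a5 has no match in this region. A match is a description of sequence, and miRNAs were not measured in these libraries.

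Type IV collagen split by chain. Col4a1 rose at 19 weeks from 518, 561, 433, 638 and 528 CPM in saline to a lowest, median and highest value of 710, 1310 and 2730 CPM (log2 change 1.53 ± 0.38, edgeR adjusted p = 0.00202). Col4a2 went from 379 to 515 CPM in saline to 588, 1010 and 2830 CPM (1.70 ± 0.51, edgeR adjusted p = 0.0102). All 7 libraries at 19 weeks were above saline for both chains. In the GC-adjusted fit Col4a1 had 0.57 (edgeR adjusted p = 0.0258) and Col4a2, which has a transcript GC content of 60.6%, had 0.26 (edgeR adjusted p = 0.289). At 11 weeks the changes were 0.78 and 0.66 and did not pass, although all 6 libraries were above saline.

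The chains of the alveolar network went the other way. Col4a5 had 133, 115, 46.2, 122 and 104 CPM in saline, a lowest, median and highest value of 28.9, 50.5 and 55.9 CPM at 11 weeks and of 28, 34.8 and 45.7 CPM at 19 weeks. It fell by 1.14 (SE 0.28, edgeR adjusted p = 0.00374) and by 1.53 (SE 0.27, edgeR adjusted p = 3.61e-05) on the log2 scale, and all 7 libraries at 19 weeks were below all saline libraries. Col4a6, a chain of airway and smooth muscle basement membranes, had 30.2, 27, 16.3, 33.2 and 27.6 CPM in saline and a median of 13.1 and 9.28 CPM at 11 and 19 weeks, with log2 changes of -1.13 and -1.38 (edgeR adjusted p = 0.0108 and 0.000575). Col4a3 had 354, 333, 82, 316 and 233 CPM in saline and a median of 102 and 96.3 CPM, with log2 changes of -1.19 and -1.40 (edgeR adjusted p = 0.031 and 0.00388). Col4a4 was called at 11 weeks (-0.83, edgeR adjusted p = 0.0299) and had -0.42 at 19 weeks (edgeR adjusted p = 0.203).

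Saline replicate 3 was the low saline library for all 4 of these chains. Without it the changes at 11 weeks were larger, at -1.43 for Col4a3, -1.03 for Col4a4, -1.34 for Col4a5 and -1.27 for Col4a6. The calls for Col4a3 and Col4a4 at 11 weeks did not hold in every fit: they were lost in 6 and 5 of the 11 fits that left out a library, with adjusted p-values up to 0.0803 and 0.0844. In the fits that lost them the log2 changes were -1.07 to -1.15 and -0.72 to -0.79. Those for Col4a5 and Col4a6 were kept in all 11 fits and in all 9 alternatives. The change at 19 weeks in the GC-adjusted fit was -0.63 for Col4a3 (edgeR adjusted p = 0.0835), -0.84 for Col4a4 (0.00458), -1.18 for Col4a5 and -1.41 for Col4a6.

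The 6 chains are encoded as 3 pairs, each on opposite strands and pointing away from a shared start region. Col4a1 and Col4a2 (chromosome 8) overlap by 85 bases, Col4a4 and Col4a3 (chromosome 1) overlap by 114 bases, and Col4a6 and Col4a5 (chromosome X) are 1274 bases apart. Both genes of the chromosome 8 pair were higher and both genes of the X chromosome pair lower at 19 weeks. The ratio of Col4a5 to Col4a6, per kilobase, was 3.85 ± 0.624 (SD, n = 5) in saline and 3.74 ± 1.07 (SD, n = 7) at 19 weeks. That of Col4a3 to Col4a4 was 2.35 ± 0.427 in saline and 1.35 ± 0.484 at 19 weeks. The latter ratio also differed by GC slope, with 1.8 ± 0.531 (SD, n = 34) in libraries up to 0.75 and 0.526 ± 0.159 (SD, n = 9) above. In the GC-adjusted fit given above, Col4a4 fell more at 19 weeks than Col4a3. Whether counting used strand is not given in the sources used here, so reads of the overlapping ends are uncertain.

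**Figure D3:**
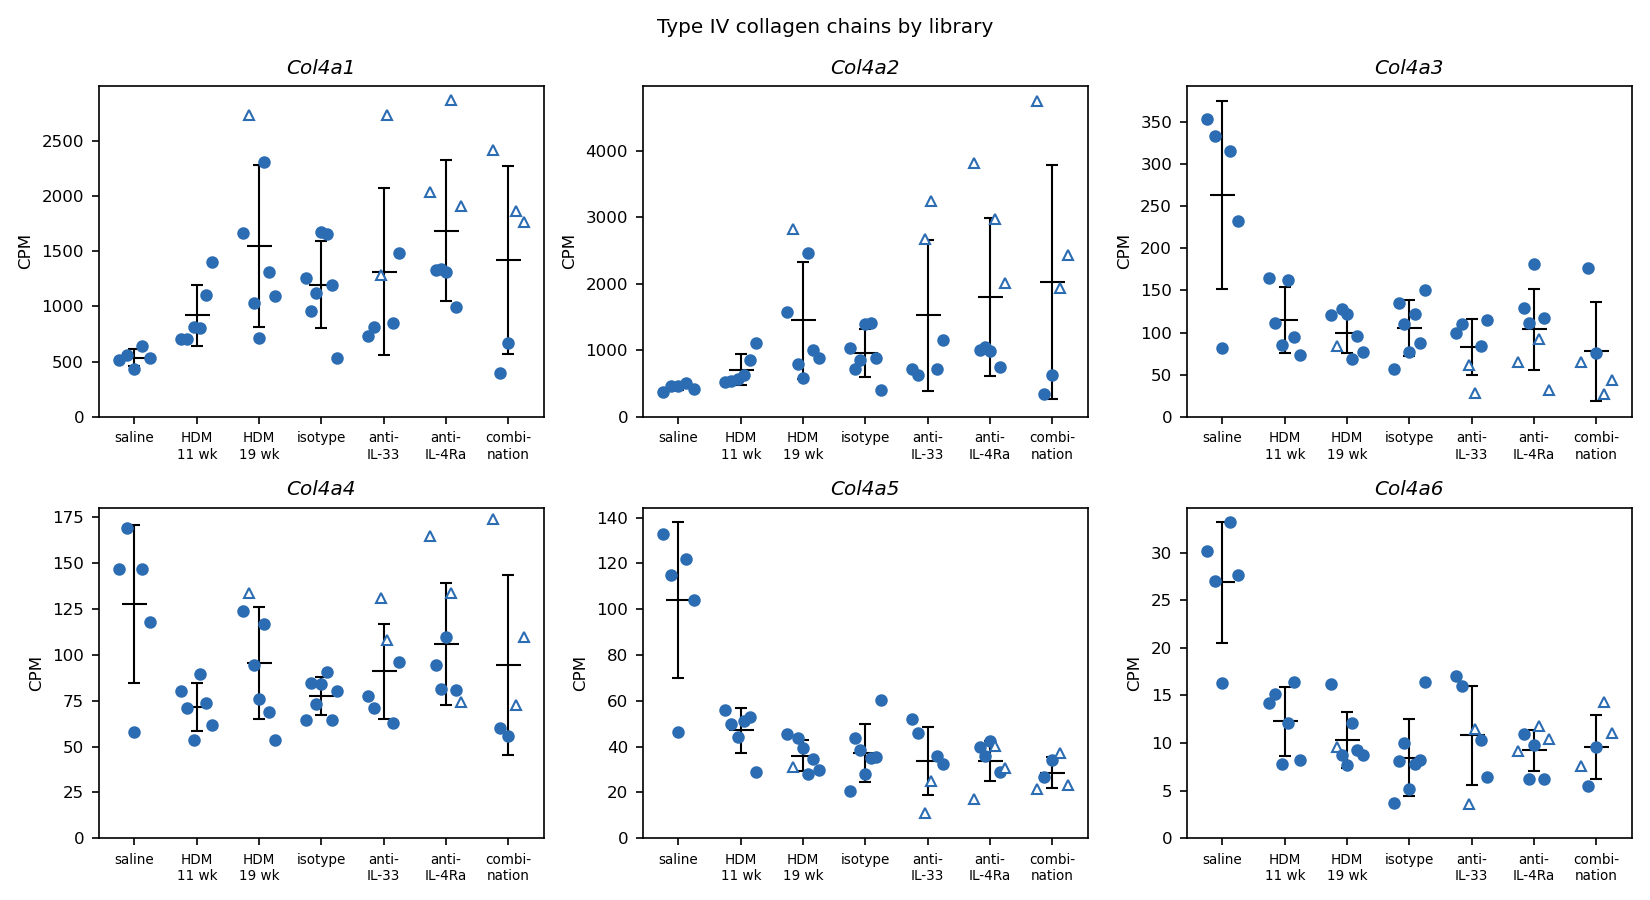
CPM of the 6 type IV collagen genes in each library, by group, with the mean and SD; open triangles mark the 9 libraries with a GC slope above 0.75. Col4a1 and Col4a2 are above saline in all 7 libraries at 19 weeks, whereas Col4a5 and Col4a6 are below saline in all 7, and the highest Col4a2 values (4750 CPM in a combination library) are in libraries with a high GC slope.

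Col15a1 and Col18a1 are basement membrane proteoglycans. Col15a1 was at 16.3, 12.8, 45.2, 15.8 and 12.8 CPM in saline, at 51, 90.4 and 168 CPM (lowest, median, highest) at 11 weeks and at 72.9, 158 and 319 CPM at 19 weeks. No HDM library overlapped with saline, and the log2 changes of 2.22 and 3.14 (edgeR adjusted p = 0.000932 and 6.41e-06) were the largest of this class. The high saline value is again replicate 3, and without it the changes were 2.72 and 3.62. Col18a1 had 1.40 at 19 weeks (edgeR adjusted p = 0.0242), and 0.12 in the GC-adjusted fit. Summed endothelial markers went from a median of 2130 CPM in saline (range 1780 to 2520) to 907 CPM at 19 weeks (566 to 1130). Of their 6 genes 4 were lower and 0 higher, against 15.6% and 19.2% of all genes. Their part in these results was not tested.

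Col6a5, an alternative chain of type VI collagen known from skin, had the largest change of any collagen at 11 weeks. Its values in saline were 1.78, 2.86, 10.3, 1.36 and 1.35 CPM. At 11 weeks the lowest, median and highest values were 84.7, 170 and 256 CPM, and at 19 weeks 30.5, 62.7 and 131 CPM. All 13 HDM libraries were above all saline libraries. The log2 change was 5.58 ± 0.8 (edgeR adjusted p = 2.08e-06) at 11 weeks and 4.47 ± 0.75 (edgeR adjusted p = 1.68e-05) at 19 weeks, and it was 5.68 and 4.93 in the GC-adjusted fit. Without saline replicate 3, the library at 10.3 CPM, the changes were 6.53 and 5.41. The later time was lower than the earlier by 1.11 ± 0.58 on the log2 scale, which did not pass (edgeR adjusted p = 0.359).

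Col6a5 lies between its sister genes Col6a6 and Col6a4 on chromosome 9, at 105856070 to 105962463, all 3 on the minus strand with gaps of 27823 and 27854 bases. Its neighbours were low throughout: Col6a4 had a mean of 0.754 CPM in saline and 2 CPM at 19 weeks (log2 change 1.42, edgeR adjusted p = 0.0121), and Col6a6 had 1.39 and 2.45 CPM (0.81, not passed). The 250 bases before the RefSeq start of Col6a5 and Col24a1, the most changed members, were searched on both strands for 6 short motifs. These were TTCNNNGAA, a palindrome of the STAT type, the same palindrome with a spacer of 4 bases, the CCAAT box, the GC box GGGCGG, the TATA box TATAAA and the SMAD box CAGACA. The build is GRCm38.p6, motif matches are in capitals, and each sequence reads 5′ to 3′ on the gene's strand.
Col6a5, chr9:105960644-105960893, minus strand: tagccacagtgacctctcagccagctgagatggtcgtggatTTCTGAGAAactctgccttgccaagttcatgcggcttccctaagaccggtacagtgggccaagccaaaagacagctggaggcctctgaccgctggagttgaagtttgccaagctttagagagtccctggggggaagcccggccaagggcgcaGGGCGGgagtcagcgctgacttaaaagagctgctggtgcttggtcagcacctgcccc
Col24a1, chr3:145292222-145292471, plus strand: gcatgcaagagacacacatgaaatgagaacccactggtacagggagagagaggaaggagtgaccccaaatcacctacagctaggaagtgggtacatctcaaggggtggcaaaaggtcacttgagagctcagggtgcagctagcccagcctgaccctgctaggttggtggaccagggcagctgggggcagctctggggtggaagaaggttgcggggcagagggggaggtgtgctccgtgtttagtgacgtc
The RefSeq span of Col6a5 given above reaches farther upstream than the start used for its window, so the window lies inside that span. The Col6a5 window holds TTCNNNGAA, 209 bases before the start, and GGGCGG, 57 bases before it. The Col24a1 window holds none of the 6. TTCNNNGAA was found in 2 of the 29 members with a window in the table and in 8.1% of 27025 genes, the form with 4 spacer bases in 0 members and 6.8% of genes, and GGGCGG in 18 members and 35.4% of genes. The CCAAT box was found in 10 members and 37.5% of genes, the TATA box in 4 and 14.3%, and the SMAD box in 8 and 19.3%.

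Of the common type VI chains, Col6a1 and Col6a2 were called at 19 weeks and Col6a3 was not. Col6a1 and Col6a2, which lie 85161 bases apart on chromosome 10, had medians of 275 and 162 CPM in saline and of 567 and 327 CPM at 19 weeks, with all 7 libraries above saline (log2 changes 1.55 and 1.83, edgeR adjusted p = 0.00319 and 0.00127). These were 0.51 and 0.69 in the GC-adjusted fit, and both passed. Col6a3 had 0.44 (edgeR adjusted p = 0.211). At 11 weeks Col6a1 and Col6a2 had 0.83 and 1.11 (edgeR adjusted p = 0.182 and 0.0761), with 6 and 5 of 6 libraries above all saline libraries, and they passed in the GC-adjusted fit (0.54 and 0.80, edgeR adjusted p = 0.0256 and 0.00234). Col22a1, a collagen of tissue junctions, was at most 0.484 CPM in saline and had a median of 1.44 CPM at 19 weeks (2.42, edgeR adjusted p = 0.002). Col7a1, the anchoring fibril below stratified epithelium, had 1.53 (edgeR adjusted p = 0.00495).

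Col14a1, which coats type I fibrils, was highest at 11 weeks: 89.7, 62.7, 77.6, 74.9 and 47.4 CPM in saline against 155, 277 and 354 CPM (lowest, median, highest) at 11 weeks, without overlap (1.91 ± 0.56, edgeR adjusted p = 0.0138). At 19 weeks its median was 144 CPM and the change of 1.15 did not pass (edgeR adjusted p = 0.0832). Its relative Col12a1 went down, from 46.5 to 89.1 CPM in saline to 11.5 to 25 CPM at 11 weeks, again without overlap (-2.05 ± 0.56, edgeR adjusted p = 0.00854), and had -1.24 at 19 weeks (edgeR adjusted p = 0.0607). Col23a1, a transmembrane collagen, was lower at both times (-0.95 and -0.85, edgeR adjusted p = 0.000271 and 0.000328). Col17a1, the collagen of hemidesmosomes, had 3.17, 7.16, 45.5, 7.58 and 7.2 CPM in saline and 0.745 to 2.97 CPM at 11 weeks. The saline value of 45.5 CPM is the library with 12900 CPM of squamous markers. Without that library the log2 change went from -2.68 (edgeR adjusted p = 0.00545) to -1.51 (edgeR adjusted p = 0.119), and with all 6 libraries holding such markers left out it was -1.51 (edgeR adjusted p = 0.0136).

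Between the HDM times and with the isotype antibody, no collagen gene passed. From 11 to 19 weeks 0 of 36 were called by edgeR (10 at an unadjusted p under 0.05, against 14.4% of all genes, and 28 with a higher value at 19 weeks), and 0.0876% of all genes were called higher and 0.0188% lower. The lowest unadjusted p-values were for Col1a1, Col1a2, Col5a1, Col24a1 and Col5a3, all higher at 19 weeks by 0.75 to 1.4 on the log2 scale. Changes between the 2 times followed GC content: Pearson's r was 0.559 over the members and 0.532 over 15826 genes. The median log2 change was 0.77 in the 18 members richer in GC and 0.13 in the 18 poorer in GC. In the GC-adjusted fit the change turned sign for 14 of the 36 members. Isotype antibody against HDM alone at 19 weeks gave 0 of 36 (4 at an unadjusted p under 0.05, against 2.13% of all genes), and 0% of all genes were called. DESeq2 gave 0 calls for collagens in both comparisons. Isotype libraries, the controls of the antibody groups, had 12 members higher and 6 lower than saline (33.3% and 16.7%, against 13% and 12.4% of all genes). The higher ones were Col1a1, Col1a2, Col3a1, Col5a1, Col5a2, Col5a3, Col24a1, Col4a1, Col15a1, Col6a5, Col7a1 and Col22a1. The lower ones were Col4a3, Col4a4, Col4a5, Col4a6, Col17a1 and Col23a1.

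The question of the antibody groups is how far blocking IL-33, IL-4Rα or both moves these genes away from their levels under isotype antibody. With anti-IL-33 alone and with anti-IL-4Rα alone, 0 of 36 collagens were called by edgeR in either direction (6 at an unadjusted p under 0.05 in each, against 18% and 14% of all genes), and 0% of all genes were called. DESeq2 called 0 collagens in both comparisons too. For anti-IL-33, Col5a2 had a log2 change of -0.81 ± 0.26 (unadjusted p = 0.00367, edgeR adjusted p = 0.246) and Col24a1 -1.25 ± 0.47 (unadjusted p = 0.0119, edgeR adjusted p = 0.252). For anti-IL-4Rα, Col20a1 had -0.83 ± 0.29 (unadjusted p = 0.00649, edgeR adjusted p = 0.308). A p that misses the threshold does not show that levels were the same.

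With the combination, 8 members (22.2%) were lower than with isotype antibody and 4 (11.1%) higher, against 6.32% lower and 12.6% higher among all genes. The lower ones were the fibrillar genes Col3a1, Col5a2 and Col24a1 and the other collagens Col6a5, Col14a1, Col12a1, Col8a1 and Col20a1. The higher ones were Col27a1, Col8a2, Col13a1 and Col26a1. None of the 8 basement membrane genes passed. Full separation from the isotype libraries was found for 0 members above and 2 below, Col5a2 and Col6a5, against 1.83% and 2.55% of all genes. In the GC-adjusted fit the counts were 11 lower and 0 higher, against 1511 and 979 of the 15979 genes. Without the 9 libraries of high GC slope they were 5 lower and 0 higher, against 129 and 360 of 16431 genes. The 5 were Col3a1, Col5a2, Col6a5, Col24a1 and Col7a1, the last not called in the main fit. Col8a1, Col12a1, Col14a1 and Col20a1 lost their calls. Without the 6 libraries with squamous or muscle markers, 1 was lower and 0 higher, against 15 and 10 of 16085 genes. That alternative was chosen after seeing the data.

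Col6a5 was the member lowered most, and the only 1 of the 12 calls that held in all 9 alternatives and in all 12 fits that left out a library. Under isotype antibody its values were 23.5 to 59.3 CPM with a median of 46.9. Under the combination they were 4.1, 3.4, 2.65, 1.27 and 6.88 CPM. All 5 libraries lay below all 7 isotype libraries. In saline, 4 libraries were at 1.35 to 2.86 CPM and replicate 3, the library with squamous and muscle markers, at 10.3 CPM, so that 3 of the 5 combination libraries lay above all saline libraries but that one. The log2 change was -3.55 ± 0.72 (edgeR adjusted p = 0.00549), between -2.67 and -3.81 with the 3 alternatives for GC content, and between -3.33 and -3.91 without each combination library. Combination replicates 2 and 3, at 3.4 and 2.65 CPM, have GC slopes of -0.942 and -0.142.

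Single blockade left Col6a5 spread out. With anti-IL-33 it was 62.3, 67.9, 65.4 and 80 CPM in the 4 libraries with a GC slope up to 0.75 and 11.9 and 4.89 CPM in the 2 above it. With anti-IL-4Rα it was 141, 41.1, 24.5 and 54.8 CPM in the 4 libraries with a GC slope up to 0.75 and 3.47, 20.7 and 4 CPM in the 3 above it. The log2 changes against isotype were 0.19 ± 0.58 and -0.05 ± 0.56. The combination was lower than anti-IL-33 by 3.74 ± 0.74 (edgeR adjusted p = 0.0267) and lower than anti-IL-4Rα by 3.51 ± 0.72 (edgeR adjusted p = 0.0223) on the log2 scale. Col6a5 was the only collagen called in either comparison, with 2.78% of members lower against 0.0438% and 0.1% of all genes, and 0 members higher against 0% and 0.0188%. Both calls did not hold in every fit: they were kept in 5 of 9 alternatives each, and in 2 of 11 and 7 of 12 fits that left out a library. In the left-out fits that lost the call, the log2 change was -3.52 to -4.1 against anti-IL-33. Against anti-IL-4Rα it was -2.77 to -3.55. Leaving out anti-IL-4Rα replicate 3, the library at 141 CPM, gave -2.77 (edgeR adjusted p = 0.111), and leaving out combination replicate 5 gave -3.52 against anti-IL-33 (edgeR adjusted p = 0.144).

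**Figure D4:**
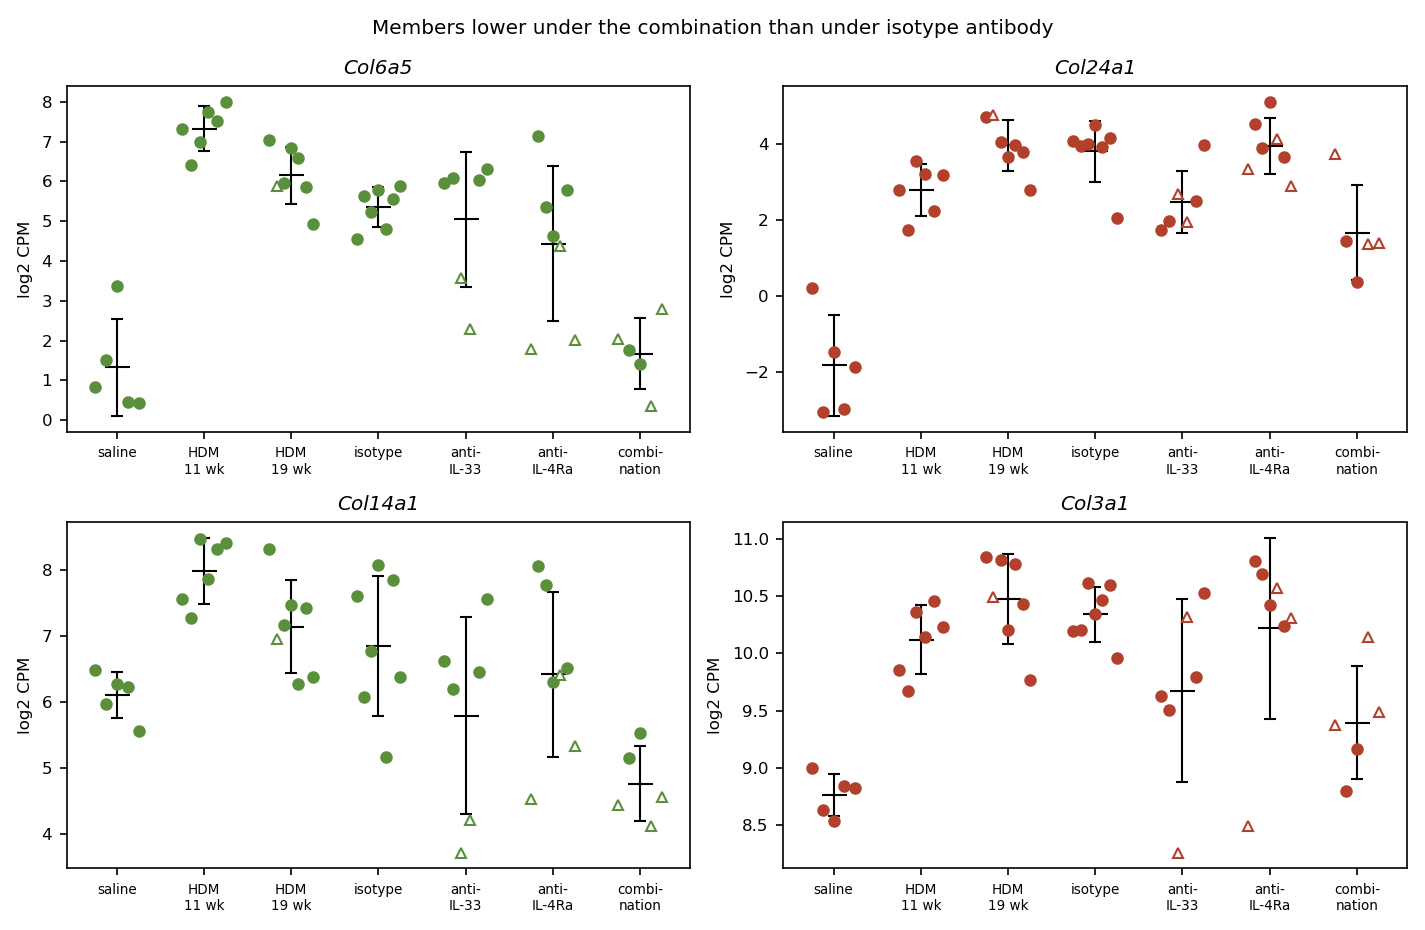
Log2 CPM of Col6a5, Col24a1, Col14a1 and Col3a1 in each library, by group, with the mean and SD of the log2 values; open triangles mark the 9 libraries with a GC slope above 0.75. Col6a5 under the combination lies between 1.27 and 6.88 CPM in libraries of both kinds, and under single blockade its low values are those of the triangles.

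The other lowered members depended more on the setting. Col24a1 had 4.14 to 22.6 CPM with isotype antibody (median 15.9) and 13.4, 2.73, 1.28, 2.55 and 2.63 CPM with the combination, so that 4 of 5 libraries lay below all isotype libraries (-1.79 ± 0.52, edgeR adjusted p = 0.0242). Without combination replicate 1, the library at 13.4 CPM, the change was -2.75, and without replicate 8 it was -1.65 (edgeR adjusted p = 0.0797). Col14a1 had a median of 109 CPM with isotype antibody (36.1 to 270) and 21.8, 35.6, 46.4, 17.5 and 23.7 CPM with the combination (-2.28 ± 0.56, edgeR adjusted p = 0.0118). Without combination replicate 1 it had -2.20 (edgeR adjusted p = 0.0548). Against saline the combination had -1.28 (edgeR adjusted p = 0.0564). Col5a2 had 151 to 287 CPM with isotype antibody and 142, 95.3, 86, 149 and 86.2 CPM with the combination, without overlap (-1.17 ± 0.28, edgeR adjusted p = 0.0111). It kept its call without each library in turn, and with GC and length offsets it had -0.37 (edgeR adjusted p = 0.263). Col3a1 had 998 to 1570 CPM with isotype antibody and 665, 444, 574, 1130 and 717 CPM with the combination, 4 of 5 below (-0.89 ± 0.29, edgeR adjusted p = 0.0354). Its call was lost in 6 of 12 fits that left out a library, up to an adjusted p of 0.138 without combination replicate 1.

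Col12a1, Col8a1 and Col20a1 had log2 changes of -1.69, -1.16 and -0.90 with the combination. Col12a1 was at 6.06, 5.89 and 4.1 CPM in the 3 combination libraries of high GC slope and at 18.2 and 13.9 CPM in the others. Its isotype values were 16.7 to 52.7 CPM. Col8a1 was at 2.05, 1.27 and 2.01 CPM in the former and at 8.59 and 3.52 CPM in the latter (isotype 5.12 to 10.3). Col12a1, Col8a1 and Col20a1 were not called without the libraries of high GC slope. They were called in 4, 4 and 0 of the 12 fits that left out a library, with the highest adjusted p-values, 0.161, 0.179 and 0.163, without combination replicate 1.

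The chains of type I collagen and of the common type IV network were not called under the combination. Col1a1 was at 1450, 237, 393, 942 and 1100 CPM, overlapping with the 294 to 1120 CPM of the isotype libraries (log2 change 0.29 ± 0.43, edgeR adjusted p = 0.614). Its change in the GC-adjusted fit was -0.49 ± 0.25 (edgeR adjusted p = 0.154). Col1a2 had -0.48 ± 0.31 (edgeR adjusted p = 0.234), and passed as lower in the GC-adjusted fit (-0.79, edgeR adjusted p = 0.0379) and with GC and length offsets (-0.70, edgeR adjusted p = 0.0373). The same 2 fits called Col5a3 and Col15a1 lower, at -1.49 and -1.10 in the GC-adjusted fit. Col4a1 and Col4a2 had 0.25 and 1.08 (edgeR adjusted p = 0.609 and 0.093), and -0.48 and -0.08 in the GC-adjusted fit. Col4a5 and Col4a6 had -0.38 and 0.18, and stayed below saline (log2 changes of -1.86 and -1.48 against saline).

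The 4 higher members were GC-rich genes. Col13a1, a transmembrane collagen, had 13.4 to 32.3 CPM with isotype antibody and 205, 26.2, 34.1, 67.4 and 70.2 CPM with the combination (1.89 ± 0.5, edgeR adjusted p = 0.0165). Without combination replicate 1, the library at 205 CPM, the change was 1.19 (edgeR adjusted p = 0.175). Col8a2, a short-chain network collagen, had 4.73 to 10.7 CPM with isotype antibody and 40.7, 4.33, 12.2, 36.6 and 41.4 CPM with the combination (1.86 ± 0.54, edgeR adjusted p = 0.023), with the 3 high values in the libraries of high GC slope. Without those libraries Col13a1 had 0.49 and Col8a2 had 0.18 (edgeR adjusted p = 0.546 and 0.846). Col26a1 and Col27a1 had 1.89 and 0.92, and 0.47 and 0.48 without those libraries. Leaving out combination replicate 1 gave 0 members higher, and leaving out replicate 2, the library of lowest GC slope, gave 11. The share of all genes called was not counted in the fits that left out a library.

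Across the 36 members the change under the combination followed GC content. Pearson's r between the log2 change and transcript GC content was 0.751 over these 36 genes and 0.357 over 15826 genes, and was 0.596 for anti-IL-33 and 0.549 for anti-IL-4Rα over the members. These genes share libraries and are not independent. The 18 members richer in GC had a median log2 change of 0.78, with 4 higher and 1 lower, and the 18 poorer in GC had -0.58, with 0 higher and 7 lower. For HDM against saline r over the members was -0.109 at 11 weeks and 0.104 at 19 weeks. Over the 15826 genes it was 0.131 and 0.41. At 19 weeks the 18 members richer in GC had 10 higher and 0 lower, and the 18 poorer in GC 7 higher and 4 lower.

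**Figure D5:**
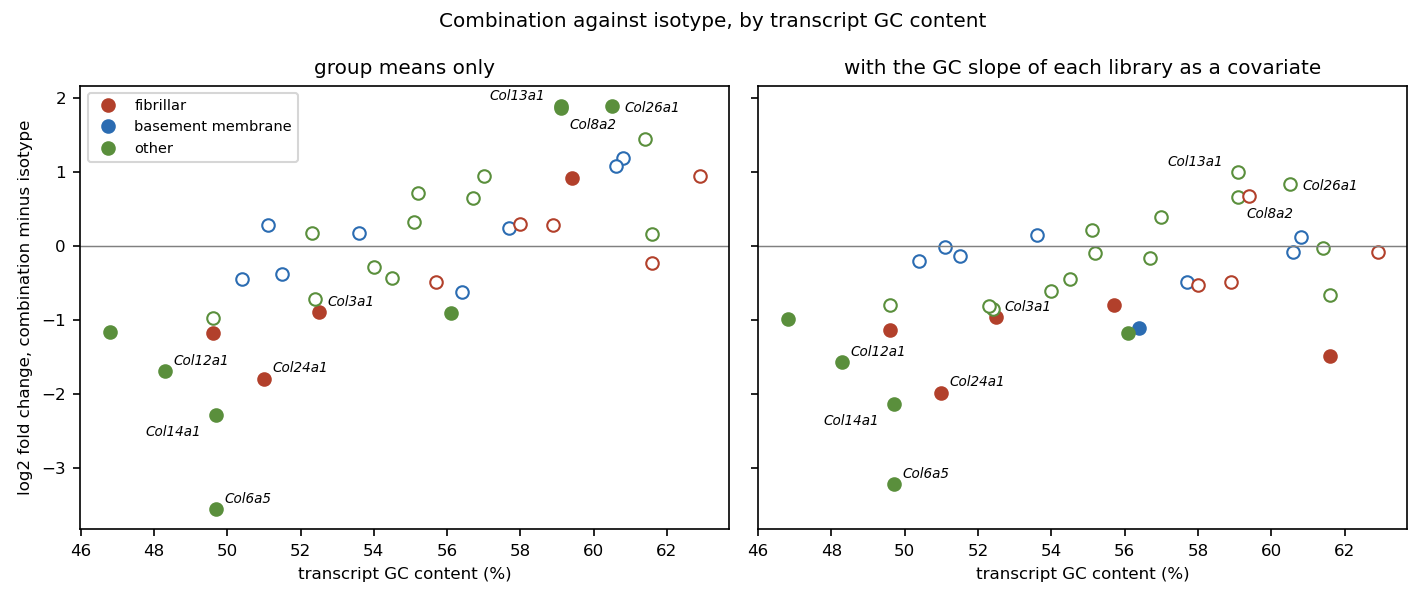
Log2 fold change of the 36 collagen genes under the combination relative to isotype antibody, against transcript GC content in percent, for the fit of group means (left) and the GC-adjusted fit (right); filled symbols passed an adjusted p of 0.05. The 4 higher calls at the right of the left panel are not called in the right panel, where 11 genes are lower and 0 higher, and Col6a5 is lowest in both (-3.55 and -3.21).

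Against saline, the combination had 17 members higher and 7 lower (47.2% and 19.4%, against 27.8% and 20.3% of all genes). In that comparison the higher count was 1 in the GC-adjusted fit, namely Col24a1, and 1 again without the libraries of high GC slope. Counts over all genes in these fits are not given here, so the drop cannot be read as particular to collagens. Of the 24 calls, those for Col4a5, Col4a6, Col12a1 (lower) and Col24a1 (higher) held in all 9 alternatives and in each fit that left out a library. Col24a1 under the combination was above all 5 saline libraries in all 5 libraries, with a log2 change of 3.49 ± 0.62 (edgeR adjusted p = 6.44e-05).

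Chains of a common molecule gave a measure within each library. Type I collagen is built from the products of Col1a1 and Col1a2, and their ratio per kilobase was 0.701 ± 0.172 (SD, n = 34) in libraries with a GC slope up to 0.75 and 1.44 ± 0.398 (SD, n = 9) above it. The ratio of Col4a1 to Col4a2 was 1.21 ± 0.115 and 0.75 ± 0.207 in the same sets, that of Col5a1 to Col5a2 0.437 ± 0.18 and 1.35 ± 0.573, and that of Col4a3 to Col4a4 1.8 ± 0.531 and 0.526 ± 0.159. Col6a1 and Col6a2 had ratios of 1.72 ± 0.222 and 1.67 ± 0.216. Transcript GC is 56.7% and 55.2% in that pair and 50.4% and 51.1% in Col4a3 and Col4a4, so pairs close in GC content were found both among the ratios that differed between these sets and among those that hardly did.

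Of 18 genes that fold and modify collagen chains, 8 were higher and 2 lower at 19 weeks, against 19.2% and 15.6% of all genes, with a median log2 change of 0.72. P4ha3, a prolyl hydroxylase subunit, went from a mean of 0.973 to 12.8 CPM (3.71, edgeR adjusted p = 5.2e-05), Fkbp10, a collagen chaperone, from 19.7 to 55 CPM (1.48, edgeR adjusted p = 0.0145), and Colgalt1, a collagen galactosyltransferase, from 78.5 to 161 CPM (1.04, edgeR adjusted p = 0.000236). Plod2, the telopeptide lysyl hydroxylase, went down from 47.6 to 18 CPM (-1.40, edgeR adjusted p = 0.000364). At 11 weeks 3 were higher and 2 lower, against 8.65% and 6.74% of all genes. With the combination 0 were higher than with isotype antibody and 2 lower, against 12.6% and 6.32% of all genes. The 2 were P4ha3 (-1.70, edgeR adjusted p = 0.0457) and P3h2 (-1.15, edgeR adjusted p = 0.0481). This list and those below were tested in the main fit only, which has no term for GC slope. Of the 5 combination libraries 3 have a high GC slope, so how far these calls depend on it was not tested.

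Of 12 tested genes that trim or cross-link collagen, 5 were higher and 1 lower at 19 weeks (19.2% and 15.6% of all genes), and 2 and 1 at 11 weeks (8.65% and 6.74% of all genes). Bmp1, the procollagen C-proteinase, had 1.67 (edgeR adjusted p = 7.05e-05), Adamts2, the N-proteinase, 1.14 (0.00232), and the lysyl oxidase Lox 0.97 (0.0193). The proteinase enhancer Pcolce2 had -2.48 (7e-07). With the combination 5 of the 12 were lower than with isotype antibody and 2 higher, against 6.32% and 12.6% of all genes. Loxl2 went from 57.8 to 18.8 CPM (-1.62, edgeR adjusted p = 0.0181), Loxl4, Lox, Tll1 and Adamts3 were lower too, and Loxl1 and Pcolce2 were higher.

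Of 10 collagen receptors, 0 were higher and 5 lower at 19 weeks, against 19.2% and 15.6% of all genes, with a median of -0.89. Itga1 had -1.43 (edgeR adjusted p = 0.00916), Itgb1 -0.77 (0.00868), Ddr2 -1.02 (0.0383) and the platelet receptor Gp6 -3.66 (8.57e-06). The small proteoglycans that bind fibrils were divided. At 19 weeks Dcn, Ogn and Aspn were lower, with Ogn falling from 440 to 58.4 CPM (-2.91, edgeR adjusted p = 0.000133), and Bgn and Fmod were higher, with Fmod rising from 11.6 to 70.7 CPM (2.61, edgeR adjusted p = 0.000117). With the combination 5 of these 7 were higher than with isotype antibody, including Dcn (1.42, edgeR adjusted p = 0.0344) and Ogn (1.88, 0.0249), against 12.6% of all genes. Without the 6 libraries with squamous or muscle markers, the combination against isotype antibody had 10 genes higher and 15 lower among the 16085 tested, and the pathway lists were not counted in that fit. Of 9 genes of the TGF-β pathway, a driver of collagen transcription, 4 were higher and 1 lower at 19 weeks, against 19.2% and 15.6% of all genes. The median log2 change of the 9 was 0.15. The higher ones included Tgfb1 (2.98, edgeR adjusted p = 0.00105), Ccn2 (1.31, 0.0021) and Tgfbi (0.97, 0.00602), and the lower one was the inhibitor Smad7. With the combination only Ccn2 of the 9 was called, lower, from 147 to 55.5 CPM (-1.41, edgeR adjusted p = 0.00948), against 6.32% of all genes lower. The median over all genes tested lay between 0 and 0.04 in these comparisons.

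Markers of the cells that make or border collagen moved with the groups. Summed fibroblast markers had medians of 2570 CPM in saline (2250 to 2980), 2470 at 19 weeks (1620 to 3200), 2030 with isotype antibody (1610 to 4430) and 1450 with the combination (1050 to 1600). Of the 8 genes, 5 were lower and 1 higher at 19 weeks, and under the combination 2 were higher and 1, Fn1, lower (-1.85). Summed adipose markers ran from 26.7 to 1090 CPM in saline, 2.85 to 116 at 19 weeks, 3.91 to 18.3 with isotype antibody and 18.8 to 513 with the combination. All 5 genes were lower at 19 weeks and all 5 higher with the combination than with isotype antibody. Combination replicates 1 and 8 were at 465 and 513 CPM, and replicates 2, 3 and 5 at 18.8, 40.4 and 27.3 CPM. The value of 1090 CPM is saline replicate 3, with the other saline libraries at 26.7 to 52.5 CPM. Saline replicate 3 and combination replicates 1 and 8 are among the 6 libraries with squamous or muscle markers. Lung epithelial markers summed to 16400 to 25400 CPM with isotype antibody and 20700 to 45800 with the combination. Cartilage markers were at most 6.12 CPM in any library, and Snorc was at 0 in every group but the combination. Of 6 smooth muscle and myofibroblast genes 0 were called at 19 weeks and 2 were higher with the combination than with isotype antibody. Of 4 mesothelial genes 3 were lower at 19 weeks, and 1 was higher and 1 lower with the combination. Of 6 squamous genes 1 was lower at 19 weeks and 0 were called with the combination, and 0 of the 5 tested skeletal muscle genes were called in either comparison. Of all genes, 19.2% were higher and 15.6% lower at 19 weeks, and 12.6% and 6.32% with the combination against isotype antibody. The part of these cell types in the collagen results was not tested.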

How the data were processed

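RNA of whole lung was sequenced in 43 libraries. The authors deposited an expected count per NCBI Gene ID for 24475 genes, 3193 of them 0 in every library; 76.8% of the other values were whole. The build is mm10 per the submitters' processing notes. For the aligner, counter, annotation and strand setting, nothing was given in the sources used here. Symbols were taken from RefSeq GRCm38.p6 for 24375 IDs, and transcript length and GC from GENCODE M21.

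Expected counts were rounded to whole numbers, filtered with filterByExpr (15979 genes), scaled by TMM and fitted with edgeR 4.0.16 (quasi-likelihood test, R 4.3.3) over all 7 groups, giving 11 comparisons with 36 residual degrees of freedom. P-values were adjusted over all genes by the Benjamini-Hochberg method, and genes with an adjusted p under 0.05 were called. CPM is per library total after TMM. The test was tested on simulated data: 87% of 4-fold and 34% of 2-fold changes were recovered for 19 weeks against saline (15848 genes), and 85% and 41% for the combination against isotype antibody (15862 genes). The simulation gave all groups the same mean levels but for 200 changed genes, and had no GC slope and no libraries with other tissue.

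The alternatives were DESeq2 1.42.0, its size factors, no filter, the replicate number as a block, the compared groups alone, 3 corrections for GC content, leaving out each library, and leaving out libraries with markers of other tissues. The collagen genes, pathway lists and marker lists were chosen with earlier results of these data known. Values by library were planned for Col1a1, Col1a2, Col3a1, Col4a1, Col4a2 and, per class, the called genes with the largest changes. Other genes with such values, the 50 CPM limit for markers and the motifs were chosen after values were seen.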

Additional observations from a re-analysis of the deposited data

Results flagged for a closer look

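Of 175 sets of libraries checked (a gene or a class sum within 1 group), 14 had a library far from the others, and chance gives about 1 in 20. Saline replicate 3 held 3 of them: Col15a1 at 45.2 CPM (others 12.8 to 16.3), Col4a3 at 82 CPM (others 233 to 354) and Col4a5 at 46.2 CPM (others 104 to 133). Anti-IL-4Rα replicate 2 held 3 as well, with Col3a1 at 359 CPM (others 1210 to 1790), Col4a5 at 17.2 CPM (others 29.1 to 42.5) and Col5a2 at 71.7 CPM (others 202 to 302). Isotype replicate 9 was low for Col5a2 at 151 CPM (others 235 to 287), for Col22a1 at 0.364 CPM (others 1.1 to 1.78) and for Col24a1 at 4.14 CPM (others 15 to 22.6). Isotype replicate 4 was high for Col6a1 at 849 CPM (others 324 to 479) and for the summed other collagens at 2270 CPM (others 1000 to 1350). Col17a1 was 28.8 CPM in 19-week replicate 1 (others 0.75 to 2.31) and 0.745 CPM in 11-week replicate 3 (others 2 to 2.97). Col4a5 was 28.9 CPM in 11-week replicate 9 (others 44.4 to 55.9).

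The combination differed from each single blockade in Col6a5 by the test of that difference, at -3.74 against anti-IL-33 and -3.51 against anti-IL-4Rα on the log2 scale.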

How the results depend on the processing

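Of the 16 collagen calls at 11 weeks, 10 held in all 9 alternatives and every fit without 1 library; this was 15 of 21 at 19 weeks, 15 of 18 for isotype against saline, 1 of 12 for the combination against isotype (Col6a5) and 4 of 24 against saline. Where a count moved by over 1.5 times the cause was not tested. At 11 weeks the count higher went from 9 to 19 with the 2 groups alone, 14 with GC and length offsets and 15 without libraries of GC slope above 0.75 (steep libraries). Over all genes the higher ones in these fits were 3003 of 15262, 2017 of 15826 and 2585 of 16431. At 19 weeks the count lower went from 4 to 7 in the GC-adjusted fit, 8 with offsets and 7 without the steep libraries. Over all genes the lower ones in these fits were 2680 of 15979, 2933 of 15826 and 4341 of 16431. For isotype against saline the count higher went from 12 to 19 without the steep libraries, with 3798 of 16431 genes higher. For the combination against isotype the count higher went from 4 to 0 with the replicate block, 2 with the groups alone, 0 in the GC-adjusted fit, 2 with offsets, 0 without steep libraries and 0 without libraries holding squamous or muscle markers. Over all genes the higher ones in these fits, in that order, were 262, 1325, 979, 2329, 360 and 10. The count lower went from 8 to 5 with the block, 5 without steep libraries and 1 without the marker libraries. Over all genes the lower ones in these fits were 289, 129 and 15. Against saline the 17 higher became 1 in the GC-adjusted fit, 10 with offsets, 1 without steep libraries and 2 without the marker libraries. For these fits against saline the counts over all genes are not given here. The 1 lower against anti-IL-33 became 0 with the block, the groups alone, the GC-adjusted fit and without the marker libraries. Over all genes the lower ones in these fits, in that order, were 5, 1, 6 and 3. The 1 lower against anti-IL-4Rα became 4 with DESeq2, in the GC-adjusted fit and without steep libraries. Over all genes the lower ones in these fits were 123 of 15979, 478 of 15979 and 18 of 16431. The count became 0 with the block, the groups alone, offsets and without the marker libraries. With the block, the groups alone and offsets, 0, 0 and 55 of all genes were lower.

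Leaving out 1 library gave counts of 0 to 11 higher and 3 to 8 lower for the combination against isotype, 9 to 19 higher against saline, 0 to 1 lower against anti-IL-33, 0 to 6 lower against anti-IL-4Rα, and 0 to 1 lower for anti-IL-33 against isotype. The lowest of the first 3 ranges came without combination replicate 1 (for the lower count also without replicate 8), and the highest higher counts without combination replicate 2. The labels do not say that equal replicate numbers pair the libraries. Over 88 pairs of the same number in other groups the median correlation of deviations was -0.012 (-0.696 to 0.647), with 31 above 0.1. Over 702 pairs of other numbers the median was 0.008. A median over all pairs cannot exclude pairing between some of the groups. The replicate block left 12 of the 16 calls at 11 weeks.

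Log2 changes of the combination against isotype that turned sign were as follows. In the GC-adjusted fit Col1a1 had -0.49, Col4a1 -0.48, Col4a2 -0.08, Col4a4 -0.01, Col5a1 -0.53, Col6a1 -0.16, Col6a2 -0.09, Col7a1 -0.66, Col11a2 -0.08, Col16a1 -0.03 and Col22a1 -0.81. With GC and length offsets, which moved the median of all genes by 0.12, Col1a1 had -0.37, Col4a1 -0.25, Col4a3 0.09, Col4a5 0.10, Col5a1 -0.23, Col6a1 -0.02, Col7a1 -0.70 and Col11a2 -0.23. Without steep libraries Col1a1 had -1.07, Col4a1 -1.15, Col4a2 -0.96, Col4a3 0.27, Col4a4 -0.40, Col4a6 -0.15, Col5a1 -1.32, Col6a1 -0.88, Col6a2 -0.78, Col7a1 -1.44, Col11a2 -0.65, Col16a1 -0.93, Col18a1 -0.54 and Col22a1 -1.49. Without the marker libraries, an alternative chosen after seeing the data, Col1a1 had -0.36, Col4a1 -0.30, Col4a4 -0.34, Col5a1 -0.54, Col6a1 -0.37, Col6a2 -0.26, Col7a1 -0.69, Col16a1 -0.10 and Col22a1 -0.41. With the block Col7a1 had -0.02 and Col22a1 -0.09. Leaving out 1 library each gave ranges whose lowest value came without combination replicate 1 and highest without combination replicate 2 for Col1a1 (-0.01 to 0.53), Col4a1 (-0.03 to 0.48), Col4a4 (-0.05 to 0.41), Col5a1 (-0.25 to 0.55), Col7a1 (-0.41 to 0.41) and Col22a1 (-0.30 to 0.46). Col4a6 ran from -0.01 without combination replicate 5 to 0.43 without isotype replicate 9. Col5a3 ran from -1.24 without combination replicate 1 to 0.06 without combination replicate 2, with 0.01 without isotype replicate 4. None of these genes was called in the comparison itself. Against saline Col26a1 had -0.07 with offsets, Col16a1 -0.46 in the GC-adjusted fit, and Col5a1 -0.14, Col5a3 -0.28, Col6a1 -0.09 and Col16a1 -0.45 without steep libraries.

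The combination and isotype groups hold 5 and 7 libraries, 3 of the 5 with a high GC slope. Of simulated 2-fold changes 41% were recovered in that comparison, so changes of this size can be missed. The simulation had no GC slope and few changed genes, so its shares are not rates for these data.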
